A study of Mus musculus with 2 samples.

Results

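The cells described here are 835 stroma cells of the control library of a mouse uterus series, of 3340 control stroma cells and 7745 deposited barcodes in all. They were chosen in steps from the control matrix. Barcodes needed at least 500 genes and at most 15% mitochondrial counts. Stroma needed at least 10 unique molecular identifiers (UMIs, the counts of single captured RNA molecules) per 10,000 from Dcn, Col1a2, Col3a1, Col6a2, Pdgfra and Hsd11b2. It also needed under 5 per 10,000 from Epcam, Krt8, Krt18 and Cldn7, which mark epithelium, and under 20 from Actg2, Cnn1, Myh11 and Des, which mark smooth muscle. The members are the 25% of stroma with the highest sum of Robo2, Hoxa11os, Gria4 and Slc6a2 per 10,000 UMIs, and the other 2505 cells are called the rest. Those 4 values chose the members from the same cells, so the values of members against the rest are a description and carry no test.

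Uteri of female mice at gestational day 3.5 were trypsin-digested, and single cells were captured on the 10x platform after a dead cell removal kit had been used against blood cells. The group labelled knockout had the genotype Pgrcre/+Mig-6f/f, in which Cre under the progesterone receptor gene Pgr directs deletion of the floxed Mig-6 gene to Pgr-expressing cells and 1 Pgr allele carries the Cre. The control had the genotype Mig-6f/f without Cre, so both groups carry the floxed alleles. Each group is 1 library (n = 1), no comparison has a replicate check, and all intervals below are exact 95% intervals that cover counting error only. The number of mice in a library and their age were not given in the labels.

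The control library held 44871170 UMIs and the library labelled knockout 23317904 UMIs. The 2 libraries shared 3 barcodes, of which 1 was a member. Errfi1, the gene of Mig-6, checks the labels. Over all stroma cells it stood at 741 UMIs per 1000000 UMIs (counts per 1000000, CPM) in the library labelled knockout and at 193 CPM in the control, 3.83-fold higher (3.67 to 4.01), which goes against the label. Pgr was at 408 CPM in the library labelled knockout and 238 CPM in the control, 1.71-fold higher (1.62 to 1.81). A 3' tag outside the deleted part would not show the deletion, and what was deleted is not given in the labels. The cause of the higher Errfi1 level was not tested. Whether the 2 labels were exchanged was not tested, and each direction between the libraries below rests on the labels as given.

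Stromal cells of the uterus prepare at this stage, under progesterone, to become decidual cells around an implanting embryo, and in mice the homeobox genes Hoxa10 and Hoxa11 are required in this tissue for that step. Robo2 encodes a receptor for the SLIT guidance ligands, known for steering axons. Hoxa11os is a noncoding RNA transcribed from the strand opposite Hoxa11. Gria4 encodes an AMPA-type glutamate receptor subunit, and Slc6a2 encodes the noradrenaline transporter.

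Start regions of the genes that chose the members are shown because these genes define the cells. RefSeq's table for GRCm38.p6, which is another build than that of the counts, held 3 windows for Robo2, 1 for Hoxa11os and 1 for Gria4. Each window runs 5′ to 3′ on the gene's own strand over 300 bases, and for Robo2 the most upstream window is given. Capitals mark the only motif found. The Robo2 window lies at chr16:75447244-75447543 on the minus strand, the Hoxa11os window at chr6:52244993-52245292 on the plus strand and the Gria4 window at chr9:4796185-4796484 on the minus strand.
Robo2: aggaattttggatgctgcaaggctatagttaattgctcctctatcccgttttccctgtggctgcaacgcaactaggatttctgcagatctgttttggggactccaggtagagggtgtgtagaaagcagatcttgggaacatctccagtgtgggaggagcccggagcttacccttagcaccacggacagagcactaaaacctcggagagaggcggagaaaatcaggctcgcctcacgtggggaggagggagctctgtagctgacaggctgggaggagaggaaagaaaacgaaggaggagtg
Hoxa11os: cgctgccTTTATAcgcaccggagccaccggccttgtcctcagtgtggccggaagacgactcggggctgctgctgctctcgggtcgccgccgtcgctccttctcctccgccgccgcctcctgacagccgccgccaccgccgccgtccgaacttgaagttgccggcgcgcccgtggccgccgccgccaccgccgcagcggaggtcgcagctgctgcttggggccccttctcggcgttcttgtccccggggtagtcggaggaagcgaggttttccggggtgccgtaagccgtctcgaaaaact
Gria4: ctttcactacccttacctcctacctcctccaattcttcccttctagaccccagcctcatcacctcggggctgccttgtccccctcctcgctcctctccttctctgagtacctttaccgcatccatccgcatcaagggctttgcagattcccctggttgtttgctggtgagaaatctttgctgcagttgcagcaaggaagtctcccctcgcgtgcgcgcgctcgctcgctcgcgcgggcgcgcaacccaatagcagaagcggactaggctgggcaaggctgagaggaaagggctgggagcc
The Hoxa11os window lies inside the Hoxa11 gene, which runs on the minus strand, and holds 41 CpG pairs with 70.3% G and C, against 9 pairs and 53.3% in the Robo2 window and 17 pairs and 59.7% in the Gria4 window. Searched on both strands were the estrogen receptor core GGTCA, held by 40.5% of all 32851 windows, the progesterone receptor core ACANNNTGT (6.85%), the LEF and TCF core CTTTGAT (3.73%) and the TATA box TATAAA (13.6%). Only TATAAA was found, once, on the opposite strand of the Hoxa11os window. The labels and notes used here do not say whether counting used strand, so reads of Hoxa11os and Hoxa11 cannot be told apart with certainty.

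Robo2 was at 1059 CPM in members and 173 CPM in the rest, a ratio of 6.12 (5.90 to 6.36). Gria4 was at 350 CPM in members and 71.6 CPM in the rest, a ratio of 4.89 (4.6 to 5.20). These 2 genes separated the groups more than the other two. Hoxa11os was at 669 CPM in members and 271 CPM in the rest (ratio 2.47, 2.38 to 2.56), and Slc6a2 at 240 CPM in members and 104 CPM in the rest (ratio 2.31, 2.17 to 2.45). Robo2 supplied 45.7% of the UMIs of the members' sum, Hoxa11os 28.9%, Gria4 15.1% and Slc6a2 10.4%.

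The sum of the rule genes had a median of 19.3 per 10,000 UMIs in members and 5.64 in the rest. It ran from 13.5 to 124.8 among members, with 10% of them above 37.3, while 150 cells of the rest (5.99%) were at 0. The distribution had no gap at the cut-off of 13.4953: the 5 cells just inside lay between 13.4953 and 13.5074, the 5 just outside between 13.4659 and 13.4939, and 220 stroma cells lay within 1 of it. The members are therefore the upper range of a continuous measure.

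**Figure D1:**
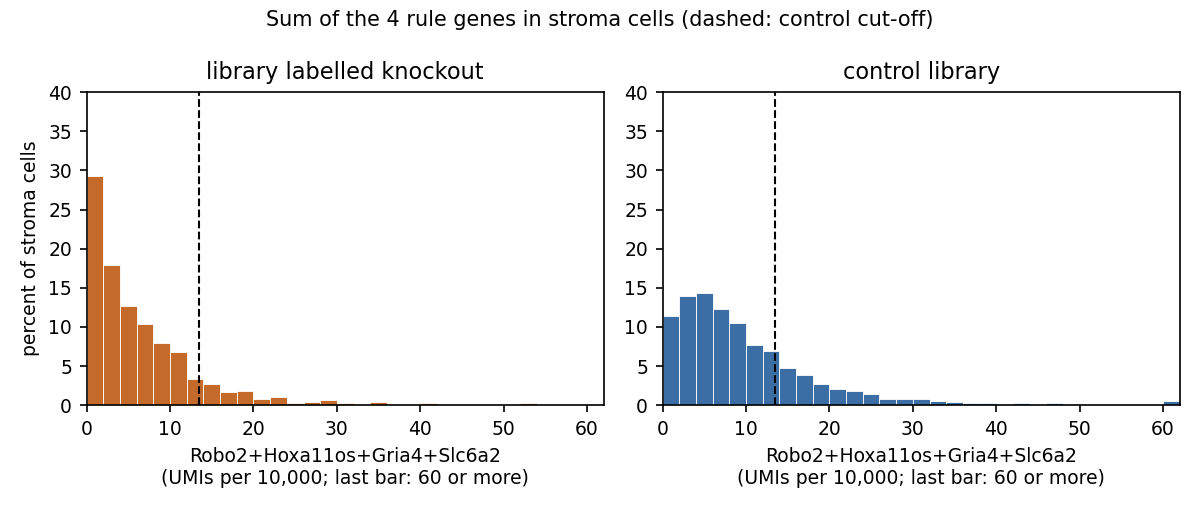
Percent of stroma cells (vertical axis) by the summed UMIs of Robo2, Hoxa11os, Gria4 and Slc6a2 per 10,000 UMIs (horizontal axis, bins of 2), for the library labelled knockout (left) and the control library (right). The dashed line is the control cut-off at 13.4953, above which lie 12.4% of stroma cells of the library labelled knockout and 25% of control stroma cells, with no gap at the cut-off in either distribution.

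Most members carried several of the genes at once. All 4 had at least 1 UMI in 458 members (54.9%) and in 290 cells of the rest (11.6%), and 8 members (0.958%) rested on a single gene. After thinning every cell to 2000 UMIs, which left 824 members and 2484 cells of the rest, Robo2 was seen in 69.3% of members and 26.2% of the rest, Hoxa11os in 70.3% and 37.2%, Gria4 in 43.6% and 10.5%, and Slc6a2 in 36.9% and 19.2%. Before thinning, Robo2 was seen in 93.1% of members and 58.1% of the rest. The same thinned shares in 690 control epithelial cells, which should lack these genes, were 0.435% for Robo2, 0.290% for Hoxa11os, 0 cells for Gria4 (up to 0.533%) and 0.145% for Slc6a2, well under the shares in the rest of stroma. Median depth before thinning was 9376 UMIs in members, 8910 UMIs in the rest and 11794 UMIs in the epithelial cells.

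The 4 genes varied together only in part. Across the 3340 stroma cells, which share 1 library, their levels per 10,000 UMIs had Pearson correlations between 0.136 (Gria4 with Slc6a2) and 0.285 (Robo2 with Gria4). When 1 gene was left out of the sum and read in the new top 25%, it was still higher there. Gria4 then had a ratio of 2.58 (2.43 to 2.73), Robo2 2.48 (2.39 to 2.57), Slc6a2 1.73 (1.63 to 1.84) and Hoxa11os 1.59 (1.53 to 1.65). Between 621 members (Robo2 left out) and 755 members (Slc6a2 left out) were chosen both times. The 4 genes were chosen with earlier results of these data known, so the higher levels of left-out genes may be partly fixed by that choice.

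Robo2 gave the most UMIs in 405 members and Hoxa11os in 283 members. Robo1 was at 739 CPM in members led by Robo2 and 450 CPM in those led by Hoxa11os, a ratio of 1.64 (1.53 to 1.76). Prlr was at 87.6 CPM in members led by Robo2 and 53.9 CPM in those led by Hoxa11os, a ratio of 1.62 (1.33 to 1.99). Ramp3 went the other way, at 421 CPM in members led by Robo2 and 479 CPM in those led by Hoxa11os (1.14-fold lower, 1.06 to 1.23). Of all 7015 genes compared, 19.7% had an interval above 1 in this split and 9.27% an interval below 1. A list of 8 nuclear RNA genes summed to 13611.5 CPM in members led by Robo2 and 10321.3 CPM in those led by Hoxa11os. The part of nuclear RNA in these ratios was not tested. Of the 12 genes named below as higher in members 7 had an interval above 1 and 1 below, and of the 12 named as lower 5 had an interval above 1 and 2 below.

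Stroma markers were present in these cells. The 17 stroma markers that the rule did not use, among them Pgr, Esr1, Hand2 and Nr2f2, summed to 5355 CPM in members and 5316 CPM in the rest, a ratio of 1.01, and all 17 were detected in members. Taken singly, 9 of the 17 were higher and 8 lower in members. Of them 1 was past 1.5-fold higher and 3 past 1.5-fold lower (background over 7015 genes: 3.56% and 5.97%). Markers of other cell types were read as well, of which the rule itself caps 4 epithelial and 4 smooth muscle genes. The 12 epithelial markers summed to 49.3 CPM in members and 60.5 CPM in the rest, with Cldn4 and Foxa2 at 0 in members. The 14 immune markers summed to 6.55 CPM in members and 78.5 CPM in the rest, with Cd3e, Cd3g, Nkg7, Klrb1c and Adgre1 at 0 in members. The 8 pericyte markers summed to 17.1 CPM in members and 60.3 CPM in the rest, and the 10 endothelial markers to 69.6 CPM in members and 66.6 CPM in the rest, with Tie1 and Cldn5 at 0 in members. The immune and pericyte sums were uneven among cells, with a median of 0 per cell in both groups. Scaled per cell like the rule genes, the highest cell of the rest reached 436 for immune and 111 for pericyte markers. The highest member reached 2.94 for immune and 30.6 for pericyte markers. Rgs5, a pericyte marker, had a UMI in 1.72% of the rest and 0.479% of members. The part of the highest cells in the immune and pericyte sums was not tested. The 14 markers of neurons and Schwann cells summed to 14.8 CPM in members and 12.3 CPM in the rest, a ratio of 1.2 (0.955 to 1.49), with 9 of the 14 higher in members and Th at 0 in members. None of those 14 had the UMIs to be compared singly, and their part in the neural genes below was not tested. The 10 smooth muscle markers, with the capped genes Des, Actg2, Cnn1 and Myh11 among them, summed to 759 CPM in members and 806 CPM in the rest. Des made up 324 CPM of that sum in members and 400.1 CPM in the rest, and Actg2 was at 0 in members. Taken singly, 2 of the 10 smooth muscle markers were higher and 8 lower in members. Of the 4 with the UMIs to be compared, 0 were past 1.5-fold higher and 2 past 1.5-fold lower (background: 3.56% and 5.97% of 7015 genes). The 8 mesothelial markers summed to 131 CPM in members and 134 CPM in the rest, with 5 of them, Msln included, at 0 in members.

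Genes of a dissociation stress list were lower in members, and whether digestion set their levels was not tested. The list holds immediate early and heat shock genes that can rise when tissue is digested. All 17 of its genes were past 1.5-fold lower in members (background: 5.97% of 7015 genes), with a sum of 5064 CPM in members and 9706 CPM in the rest, 1.92-fold lower. Fos was at 87.9 CPM in members and 205 CPM in the rest, and Hspa1a at 691 CPM in members and 1522 CPM in the rest. The sum per cell was at or under the stroma median in 615 members (73.7%) and in 1055 cells of the rest (42.1%), and those low-stress cells are used beside the results below, a setting chosen after seeing the data. That setting lessened the stress difference but did not remove it. Of 12 stress list genes compared there, 0 were past 1.5-fold higher in members and 3 lower, with a median log2 ratio of -0.353 (background: 3.27% and 2.77% of 4438 genes). The median mitochondrial share was 4.11% in members and 3.47% in the rest. The part of digestion or of mitochondrial share in the differences below was not tested.

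Among 7015 genes with at least 500 UMIs over control stroma, 250 (3.56%) were at least 1.5-fold higher in members and 419 (5.97%) at least 1.5-fold lower, with a median log2 ratio of 0.04 (the 4 rule genes are counted). In the low-stress cells 145 of 4438 genes (3.27%) were higher and 123 (2.77%) lower. Of the genes past 1.5-fold in all stroma that could be compared in those cells, 118 of 177 higher ones and 97 of 183 lower ones were still past it, and 177 and 181 of them kept the direction.

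The 12 genes named as higher in members by the size of their ratio included several receptors and channels. Prlr, the prolactin receptor, was at 74.4 CPM in members and 16.4 CPM in the rest, a ratio of 4.55 (3.99 to 5.19). Serinc2, of the serine incorporator family of membrane proteins, was at 79.1 CPM in members and 17.1 CPM in the rest, a ratio of 4.63 (4.07 to 5.27). Kcnb2, a voltage-gated potassium channel, and Kcnip4, a calcium-binding partner of such channels, had similar ratios to those. Kcnb2 was at 78.4 CPM in members and 18.6 CPM in the rest (ratio 4.20), and Kcnip4 at 80.8 CPM in members and 19.0 CPM in the rest (ratio 4.25). Kcnip4 was uneven among members: after thinning it was seen in 8.74% of members, 2.54% of the rest and 1.16% of epithelial cells, and 24 members held 50% of its UMIs. Dio2, the deiodinase that activates thyroid hormone, was at 155 CPM in members and 49.0 CPM in the rest, a ratio of 3.17 (2.92 to 3.44). In control epithelial cells Serinc2 was at 29.0 CPM and Kcnb2 at 36.5 CPM, above the rest of stroma and under members. Prlr (0.675 CPM), Kcnip4 (10.5 CPM) and Dio2 (18.5 CPM) were lower in the epithelial cells than in the rest of stroma.

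Other named genes that were higher belonged to signalling and matrix. Robo1, a second SLIT receptor, was at 611 CPM in members and 231 CPM in the rest, a ratio of 2.65 (2.55 to 2.76). Ramp3, which pairs with the adrenomedullin receptor, was at 439 CPM in members and 175 CPM in the rest, a ratio of 2.51 (2.40 to 2.62). Both were common, with a UMI in 56.1% of thinned members against 29.8% of the rest for Robo1, and 50.7% against 22.9% for Ramp3, while thinned epithelial cells had 0.725% for Robo1 and 0 cells for Ramp3. Lef1, a transcription factor of the WNT pathway, had a ratio of 2.87 (2.53 to 3.26), Il13ra2, a decoy receptor for interleukin 13, 2.88 (2.64 to 3.15), and Pdxk, the kinase of vitamin B6, 2.79 (2.55 to 3.06). Fam189a1 had a ratio of 2.98 (2.76 to 3.22) and the collagen gene Col22a1 2.57. In the low-stress cells all 12 ratios stayed past 1.5, from 2.03 for Ramp3 to 4.15 for Serinc2.

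The 12 genes named as lower in members held secreted proteins, surface receptors and stress genes. Gpx3, a secreted glutathione peroxidase, was at 99.6 CPM in members and 363 CPM in the rest, 3.65-fold lower (3.39 to 3.93). Apoe, the lipid carrier, was at 108 CPM in members and 339 CPM in the rest, 3.15-fold lower (2.93 to 3.39). Id3, an inhibitor of basic helix-loop-helix factors, was 3.42-fold lower, and Ly6a, the fibroblast and progenitor surface protein also called Sca-1, 3.39-fold lower. Ecrg4 (3.66-fold), Tnfrsf12a (3.46-fold), the adhesion molecule Icam1 (3.4-fold), the protease inhibitor Serpina3n (3.0-fold), the chemokine Cxcl10 (2.83-fold) and Nkain2 (2.83-fold) were lower as well. The heat shock cochaperone gene Dnajb1, which is on the stress list, was 3.46-fold lower in all members and 1.34-fold lower in low-stress cells, and Tanc1 was 3.01-fold lower and 1.29-fold lower. These were the only 2 of the 12 under 1.5-fold in low-stress cells, where Gpx3 was 3.79-fold, Ecrg4 4.41-fold and Ly6a 4.0-fold lower.

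Levels went stepwise with the sum. From the lowest 25% of stroma through the next 2 bands of that size to members below the top 10% (501 cells) and the top 10% (334 cells), Robo1 was at 166, 227, 292, 434 and 875 CPM, and Gpx3 at 509, 343, 254, 117 and 73.6 CPM. All 12 lower genes and 11 of the 12 higher ones followed such an order. Prlr did not, at 17.6, 9.66, 22, 52.4 and 107 CPM. The stress list summed to 11282, 10148, 7861, 5916 and 3793 CPM over the same bands, and the median mitochondrial share was 3.30% in the lowest band and 4.42% in the highest, so both followed the order too. The genes were named for differing between members and the rest, which fixes much of that order.

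**Figure D2:**
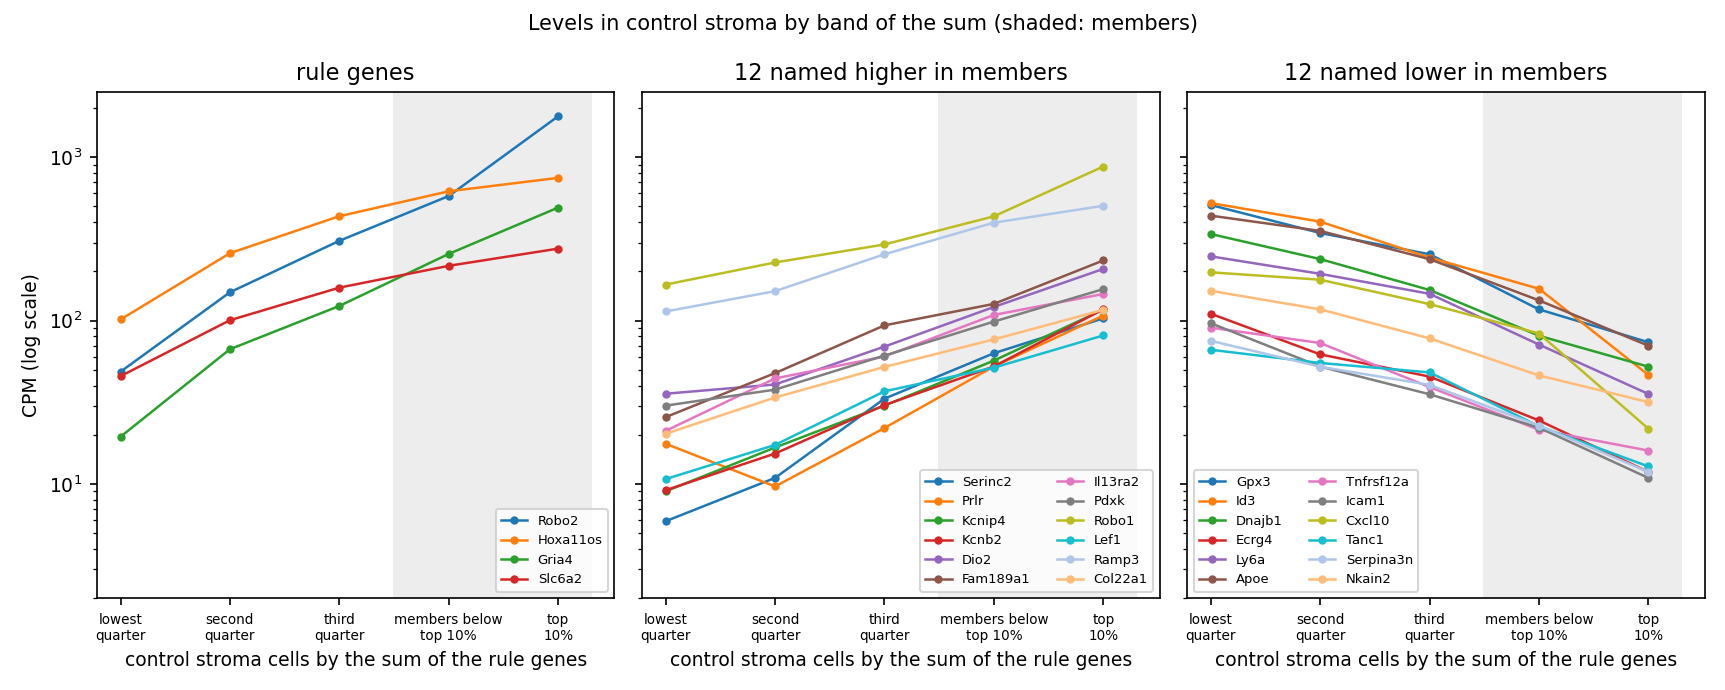
CPM on a log scale (vertical axis) of the 4 rule genes (left), the 12 named genes higher in members (middle) and the 12 lower (right) in 5 bands of control stroma cells ordered by the sum of the rule genes (horizontal axis), with the members shaded. Lines rise through the bands in the left and middle panels except for Prlr between the first 2 bands (17.6 and 9.66 CPM), and fall in the right panel.

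The lists below group other genes by role, each given by the number past 1.5-fold among those compared. The background for these counts is 3.56% higher and 5.97% lower over all 7015 genes. In low-stress cells it is 3.27% higher and 2.77% lower over 4438 genes. Each held between 16 and 35 genes outside the rule, of which those under 500 UMIs were not compared. In SLIT and ROBO signalling 2 of 13 genes were higher and 1 lower (median log2 ratio 0.11). Robo1 and Gpc1, a glypican that binds SLIT, were higher, with Gpc1 at 94.2 CPM in members and 54.3 CPM in the rest (ratio 1.73). Slit3, a ligand, was lower, at 263 CPM in members and 482 CPM in the rest (ratio 0.545, 0.520 to 0.571). In low-stress cells 2 of 11 genes were higher and 1 lower.

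Of 10 HOX cluster genes and partners outside the rule, 4 were higher and 0 lower (median log2 ratio 0.55). Hoxa10 was at 471 CPM in members and 275 CPM in the rest, a ratio of 1.72 (1.65 to 1.79). Hoxa9 had a ratio of 1.71, Pbx3, a HOX cofactor, 1.66, and Hoxd11 1.52. Hoxa11, whose reads may mix with Hoxa11os, was at 181 CPM in members and 125 CPM in the rest, a ratio of 1.45. In low-stress cells 1 of 9 was past 1.5-fold and the median log2 ratio was 0.39.

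Among genes with the UMIs to be compared, those best known from neurons were more often past 1.5-fold higher than lower. Of 19 such genes 6 were higher and 1 lower (median log2 ratio 0.41, and 7 of 17 higher with a median of 0.45 in low-stress cells). Over all 7015 genes 3.56% were higher and 5.97% lower. The adhesion gene Nrxn3 was at 125 CPM in members and 56.9 CPM in the rest (ratio 2.20), the calcium channel gene Cacna1d at 66.8 CPM in members and 30.3 CPM in the rest (ratio 2.20), and Lrrc4c had a ratio of 2.02. The ephrin receptor gene Epha3, the repulsive guidance gene Sema3a and the ephrin gene Efna5 had ratios of 1.80, 1.60 and 1.54. Kcnma1, a potassium channel gene, was lower, with a ratio of 0.656. Of 4 glutamate receptor genes and partners compared, Grik2, a kainate receptor subunit, was past 1.5-fold, at 76.8 CPM in members and 43.0 CPM in the rest (ratio 1.79). Of 3 genes of catecholamine handling, 0 were past 1.5-fold, and the breakdown enzymes Maob and Maoa had ratios of 1.36 and 0.867.

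**Figure D3:**
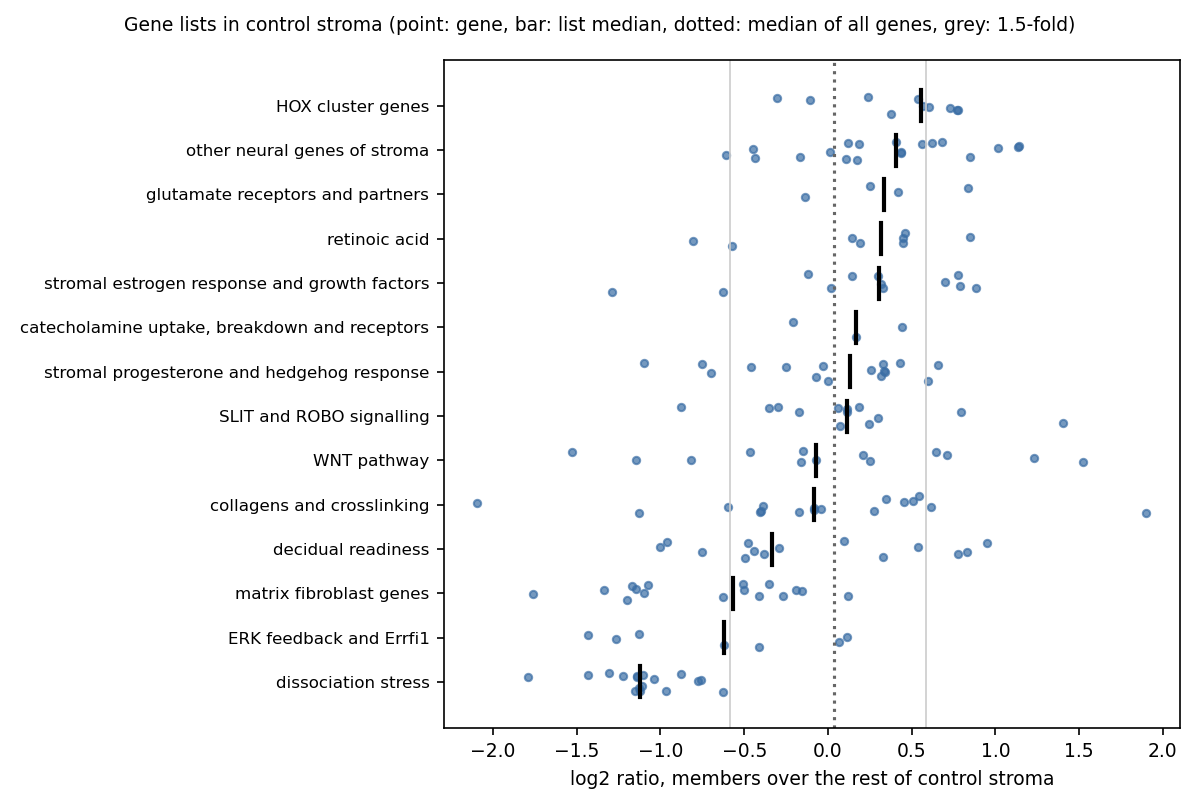
Log2 CPM ratio of members over the rest of control stroma (horizontal axis) for each gene of 14 lists (rows), with the rule genes left out. Points are genes, thick bars list medians, the dotted line the median of all 7015 genes (0.04) and grey lines 1.5-fold. HOX cluster genes lie furthest to the right (median 0.55) and dissociation stress genes furthest to the left (median -1.12).

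Hormone and implantation genes were mixed. Of 12 genes of stromal estrogen response and growth factors 4 were higher and 2 lower (median log2 ratio 0.31). Igf1, a growth factor that estrogen induces in uterus, was at 1478 CPM in members and 911 CPM in the rest, a ratio of 1.62 (1.59 to 1.66). Greb1 had a ratio of 1.85, Nrg1, a ligand of ERBB receptors, 1.73 and Igfbp5 1.71, while the chemokine gene Cxcl12 had a ratio of 0.409 and Fgf7 0.648. The receptor genes Pgr and Esr1 were within 1.5-fold, with ratios of 1.25 and 0.921.

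Of 16 genes of stromal progesterone and hedgehog response 2 were higher and 3 lower (median log2 ratio 0.13). Among the higher ones was Ptch1, a hedgehog receptor that is also a target of that pathway (ratio 1.52), and the lower ones were Sgk1 (0.468), Bmp2 (0.593) and Cited2 (0.616). In low-stress cells 0 of 11 genes of that list were higher and 1 lower, so both higher calls were lost there. Of 14 genes of decidual readiness 3 were higher and 3 lower (median log2 ratio -0.34). The gap junction gene Gja1 was at 178 CPM in members and 92.1 CPM in the rest (ratio 1.93), and Bmp7 at 138 CPM in members and 77.4 CPM in the rest (ratio 1.78). Cebpb, a transcription factor needed for decidualization in mice, was at 59.7 CPM in members and 120 CPM in the rest (ratio 0.499), beside Cebpd (0.513) and Bmp2. In low-stress cells 2 of 12 genes of that list were higher and 0 lower, with a median log2 ratio of 0.04.

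Of 13 WNT pathway genes 4 were higher and 3 lower (median log2 ratio -0.07). Lef1, the ligands Wnt16 (90.1 CPM in members and 38.3 CPM in the rest, ratio 2.35) and Wnt5a (ratio 1.63) and the modulator Sfrp2 (1.56) were higher. The R-spondins Rspo3 (ratio 0.347) and Rspo1 (0.567), which strengthen WNT signals, and the inhibitor Sfrp4 (0.452) were lower. In low-stress cells 3 of 8 WNT pathway genes were higher and 0 lower, with a median log2 ratio of 0.36. Of 8 retinoic acid genes Stra6, a retinol uptake receptor, was higher (ratio 1.80) and Rbp4, a retinol carrier, lower (0.571). Of 7 genes of ERK feedback 0 were higher and 4 lower (median log2 ratio -0.62), among them Egr1 (ratio 0.370) and Ier3 (0.457), which the stress list also holds, Phlda1 (0.416) and Spry2 (0.652). Errfi1 itself had a ratio of 1.05. In low-stress cells 2 genes of that list were compared, of which 1 was lower.

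Matrix fibroblast genes were lower or near even: of 16 compared, 0 were higher and 8 lower (median log2 ratio -0.57, and 6 of 14 lower in low-stress cells). Igfbp6, which binds insulin-like growth factors, was at 451 CPM in members and 950 CPM in the rest (ratio 0.475), and the proteoglycan gene Lum at 42.5 CPM in members and 108 CPM in the rest (ratio 0.395). Ly6a, Cygb, Fbln1, Ogn, Sfrp4 and Col14a1 made up the 8. Of 17 collagen and crosslinking genes 2 were higher and 3 lower, and in low-stress cells 1 of 13 was higher and 1 lower. Col26a1 was at 36.6 CPM in members and 9.80 CPM in the rest (ratio 3.74, 3.13 to 4.47), and Col12a1 at 9.12 CPM in members and 38.9 CPM in the rest (ratio 0.234, 0.181 to 0.299). Of 8 cell cycle genes compared, 0 were past 1.5-fold.

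The overlap with other ways of ranking the same stroma differed. Of the 835 members, 198 (23.7%, 20.9 to 26.7) were also in the top 25% by Adarb2, Rorb and Angptl7, and 74 (8.86%, 7.02 to 11) in the top 25% by Dpt, Igfbp6 and Lum. Each of those groups holds 25% of stroma, and since all 3 groups have 835 cells, the shared cells are the same share of each.

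The same rule was then read in the stroma of the library labelled knockout, whose cells were not used to choose the members. Whether that library played a part in the choice of the 4 genes is not known. That library had 1085 stroma cells, of which 271 formed its own top 25% (cut-off 9.14 per 10,000) and 814 the rest. Its median depth was 3595 UMIs in the top 25% and 3629 UMIs in the rest. Of 5537 genes compared, 137 (2.47%) were at least 1.5-fold higher and 131 (2.37%) at least 1.5-fold lower in the top 25%. The rule genes, which choose the cells again there, had ratios of 7.45 for Robo2, 3.50 for Hoxa11os, 4.03 for Gria4 and 2.94 for Slc6a2.

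Of the 24 named genes 15 had at least 100 UMIs in that stroma, and 13 of the 15 lay on the same side of 1 in both libraries (5 of 6 higher, 8 of 9 lower), where 51.6% of all genes compared lay above 1. Over all genes compared 62.3% did so, over genes at least 1.5-fold higher in the control 83.9% and over those at least 1.5-fold lower 79.5%, so the named genes were near the share of other genes of that size. Robo1 was at 382 CPM in the top 25% and 224 CPM in the rest, a ratio of 1.70 (1.5 to 1.94). Prlr had a ratio of 1.77 (1.49 to 2.10) and Dio2 1.32 (1.13 to 1.55), while Kcnip4 had 1.17 (1.02 to 1.34) and Ramp3 1.03 (0.937 to 1.12), well under their control ratios. The genes were named for their size in the control, so ratios nearer 1 here are partly fixed. The part of the lower depth of this library was not tested. Among the lower genes Ly6a was 2.15-fold, Icam1 2.07-fold, Dnajb1 1.85-fold and Id3 1.83-fold lower. The exceptions were Pdxk, with a ratio of 0.966 (0.770 to 1.2), and Gpx3, at 508 CPM in the top 25% and 420 CPM in the rest, a ratio of 1.21 (1.09 to 1.34). The stress list summed to 9842 CPM in the top 25% and 11200 CPM in the rest there.

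**Figure D4:**
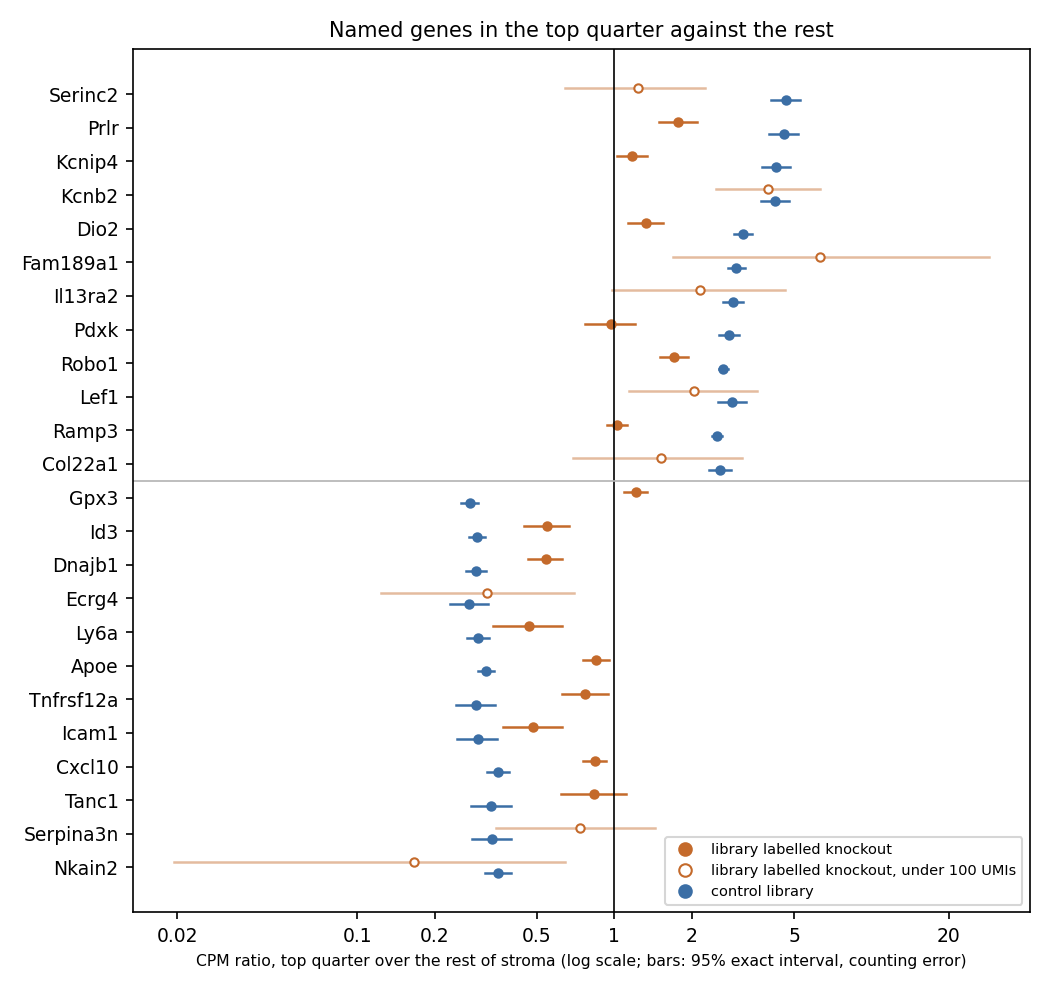
CPM ratio of the top 25% of stroma over the rest (horizontal axis, log scale) for the 24 named genes (rows), in the library labelled knockout (orange, open where under 100 UMIs) and the control library (blue). Bars are exact 95% intervals for counting error. Control points lie further from 1 than filled orange points for all 15 genes compared, which the naming of genes by their control ratios partly fixes. Gpx3 lies on opposite sides of 1 (1.21 and 0.274).

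Across all stroma, with the labels as given, the rule genes were lower in the library labelled knockout than in the control, and were the labels exchanged each fold would turn round. These 4 genes were chosen to pick control stroma, with earlier results of these data known, and that choice may partly fix their direction. Hoxa11os was at 168 CPM (156 to 181) in the library labelled knockout and 371 CPM (364 to 378) in the control, 2.21-fold lower (2.04 to 2.39). Gria4 was at 54.5 CPM (47.6 to 62.2) in the library labelled knockout and 142 CPM (137 to 146) in the control, 2.60-fold lower (2.27 to 2.99). Of 7431 genes compared 694 (9.34%) were at least 1.5-fold higher and 739 (9.94%) at least 1.5-fold lower in the library labelled knockout, and of the 4 rule genes these 2 were past 1.5-fold lower. Robo2 was at 304 CPM in the library labelled knockout and 396 CPM in the control (1.30-fold lower, 1.23 to 1.38), and Slc6a2 at 101 CPM in the library labelled knockout and 138 CPM in the control (1.37-fold lower, 1.24 to 1.52). Hoxa11, opposite Hoxa11os, was at 129 CPM in the library labelled knockout and 139 CPM in the control, a ratio of 0.927 (0.845 to 1.02).

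**Figure D5:**
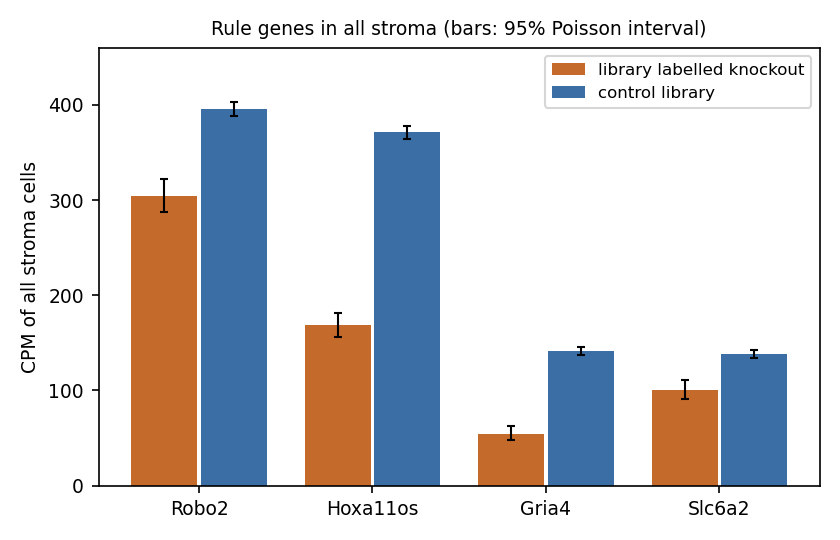
CPM over all stroma cells (vertical axis) of the 4 rule genes (horizontal axis) in the library labelled knockout (1085 cells, left bars) and the control library (3340 cells, right bars), with exact 95% Poisson intervals. Each rule gene is lower on the left, between 1.30-fold (Robo2) and 2.60-fold (Gria4).

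Fewer stroma cells passed the control cut-off in the library labelled knockout, a share that rests on the same choice of genes. After thinning to 2000 UMIs, where the cut-off was 15 per 10,000, 154 of 968 cells (15.9%, 13.7 to 18.4) passed it in the library labelled knockout and 993 of 3308 cells (30.0%, 28.5 to 31.6) in the control. Without thinning 134 of 1085 cells (12.4%) passed in the library labelled knockout and 25% in the control, which the cut-off fixes. Thinning left out 117 cells of the library labelled knockout and 32 cells of the control, and ties at the cut-off raise the control share above 25%.

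The named genes did not follow the rule genes across libraries. Of the 12 named as higher in members, 5 were past 1.5-fold higher and 6 past 1.5-fold lower in all stroma of the library labelled knockout. Kcnip4 was at 264 CPM in the library labelled knockout and 34.5 CPM in the control, 7.64-fold higher (7.02 to 8.33), and Prlr at 149 CPM in the library labelled knockout and 30.9 CPM in the control, 4.83-fold higher (4.36 to 5.35). Ramp3 (2.70-fold), Dio2 (2.49-fold) and Pdxk (1.77-fold) were also higher there. Fam189a1 was at 2.96 CPM (12 UMIs) in the library labelled knockout and 85 CPM in the control, 28.7-fold lower (16.4 to 55.6), and Il13ra2 at 7.89 CPM in the library labelled knockout and 62.9 CPM in the control, 7.97-fold lower (5.63 to 11.7). Col22a1 (5.50-fold), Lef1 (2.35-fold), Serinc2 (2.33-fold) and Kcnb2 (1.68-fold) were lower as well, and Robo1 was within 1.5-fold. With 1 library per genotype, the genotype, the mouse and the library cannot be told apart in these values.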

How the data were processed

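The deposited matrices hold whole counts of UMIs for 32285 features in each barcode. Per the file headers, Cell Ranger 7.0.1 wrote them. The submitters' processing notes name mm39 as build and Seurat as tool, without a version, and other settings are not given in the sources used here. Cells were chosen by the thresholds given in the text, and UMIs were summed over cells and scaled to the sum's total (CPM). Genes needed 500 UMIs over control stroma, or 100 UMIs in the stroma of the library labelled knockout. Ratios carry exact conditional 95% intervals, sums exact Poisson and shares exact binomial (Clopper-Pearson) intervals, all for counting error only. With 1 library per genotype no test was made. Depth was a median of 9001 UMIs per control stroma cell and 3628 per stroma cell of the library labelled knockout. Doublets were kept, and a Scrublet score (scanpy 1.11.5) was used to leave out likely ones as an alternative. Gene names came from the deposited features.

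Members and gene lists were chosen with earlier results of these data known. Named genes are the 12 highest and 12 lowest ratios by the interval bound nearest 1, among genes at 50 CPM or more in the higher sum. Rule genes, mitochondrial, ribosomal and hemoglobin genes, unnamed models, and genes with under 0.25 of their level outside stroma were left out, along with the 14 stroma rule genes. List genes past 1.5-fold were named too, apart from results not reported here. The interval code was tested on simulated data. Python 3.11.15, numpy 2.4.6, scipy 1.17.1, pandas 2.3.3 and matplotlib 3.10.9 were used. Alternatives are in the closing section.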

Additional observations from a re-analysis of the deposited data

Results flagged for a closer look

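Gpx3 lay on opposite sides of 1 in the 2 libraries. Its CPM ratio of the top 25% of stroma over the rest was 1.21 (1.09 to 1.34) in the library labelled knockout and 0.274 (0.254 to 0.295) in the control. The intervals cover counting error only, and the difference between libraries was not tested, since each genotype has 1 library.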

How the results depend on the processing

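The control comparison was repeated under 20 settings, of which leaving out cells with RNA of other types and keeping low-stress cells were chosen after seeing the data. All 24 named genes kept their direction in the 20 settings, which the choice of the same cells partly fixes. The count of genes past 1.5-fold higher, 250, became 403 for the top 10% of stroma, 145 in low-stress cells, 686 with a minimum of 100 UMIs, 81 with 2000 UMIs and 66 with a fold of 2. The count lower, 419, became 123 in low-stress cells, 901 with 100 UMIs, 162 with 2000 UMIs and 160 with a fold of 2. Fewer or more genes were compared with other minimums (10988 and 2546 genes) and in low-stress cells (4438 genes). Scaling by the median of ratios gave 218 higher and 461 lower. The share past the control cut-off in the library labelled knockout was 12.4% without thinning. List medians that changed sign, on the log2 scale, included 0.0594 for Adarb2, Rorb and Angptl7 in the top 50% of stroma, 0.0367 in low-stress cells and 0.0981 with 2000 UMIs for decidual readiness, -0.264 in low-stress cells for the cell cycle, -0.0132 with 100 UMIs for progesterone and hedgehog response, and 0.0794 with 2000 UMIs for smooth muscle. The WNT pathway median, -0.0727, became 0.356 in low-stress cells, 0.253 with 2000 UMIs, and between 0.00279 and 0.0772 for the top 10%, with Robo2 or Hoxa11os left out of the sum, for means over cells and without likely doublets. With Hoxa11os left out the collagen median was 0.0313, and by the mean rank of the 4 genes that of stroma markers was -0.0178. The causes were not tested. No paired analysis was possible because each group has 1 library. In the library labelled knockout 9 of the 24 named genes had under 100 UMIs over stroma, and each of the 9 also had a lower CPM there than in control stroma. Depth per stroma cell was a median of 3628 UMIs there and 9001 UMIs in the control, which widens the intervals of that library.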

Other observations

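Further genes of receptors and signals, chosen after their values were seen, were higher in members. Ednrb, an endothelin receptor gene, was at 67.4 CPM in members and 26.3 CPM in the rest (ratio 2.57, 2.28 to 2.89), and in the library labelled knockout at 68.6 CPM in the top 25% and 26.6 CPM in the rest (ratio 2.58, 1.84 to 3.6). Rxfp1, the relaxin receptor gene, had a ratio of 2.15 (1.94 to 2.37) in the control and 1.42 (1.22 to 1.64) in the library labelled knockout. Pth1r, a parathyroid hormone receptor gene, was at 145 CPM in members and 63.4 CPM in the rest of the control (ratio 2.29, 2.12 to 2.48), and had a ratio of 1.02 (0.773 to 1.34) in the library labelled knockout. Il15, the gene of a cytokine that natural killer cells need, was at 69.5 CPM in members and 33.6 CPM in the rest (ratio 2.07, 1.85 to 2.31). Ednrb thus had about the same ratio in both libraries, while Pth1r was near even in the library labelled knockout.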
